A study of Mus musculus with 8 samples.

Results

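Wdfy1, its relatives Wdfy2 and Wdfy3, and 4 genes of the Toll-like receptor pathway in which WDFY1 acts, Tlr3, Tlr4, Ticam1 and Irf3, were followed through cardiomyocytes of LncSync-null (KO) and wild-type (WT) mice. These 7 genes, of 51826 gene identifiers in the count table, were chosen by the measured level of Wdfy1, which was higher in KO than in WT cardiomyocytes at both ages, and by the place of the others in its family or pathway. All 7 were among the 16623 genes kept by the filter on low counts. The level of Wdfy1 in KO against WT is therefore described without a test. The KO against WT values of the other 6 genes, and the age comparisons of all 7, were tested.

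WDFY1 is an endosomal protein with WD repeats and a FYVE domain, a zinc finger that binds the lipid phosphatidylinositol 3-phosphate. It is known to bring the adaptor TRIF, the product of Ticam1, to TLR3, which senses double-stranded RNA in endosomes, and to TLR4, which senses bacterial lipopolysaccharide. TRIF relays the signal through the kinase TBK1 to the transcription factor IRF3, which switches on interferon genes. WDFY2 has the same domain layout as WDFY1 and sits on early endosomes, while WDFY3, also called ALFY, is a large BEACH domain protein of selective autophagy.

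The series set KO cardiomyocytes against WT cardiomyocytes in adult hearts and in embryonic hearts at e13.5. The KO cells are homozygous for a null allele (LncSync-/-) of LncSync, a long noncoding RNA. The 4 groups were KO adult, WT adult, KO e13.5 and WT e13.5, with 2 libraries each, numbered 1 and 2, and all 8 libraries carried the strain label C57BL/6, with no substrain. The labels give neither the age of the adults in weeks nor how the null allele was made. They do not tie the libraries to individual animals, and p-values then measure only the spread between these samples, which may be technical. Each library was amplified from total RNA with Smart-seq2, a method for small amounts of RNA, and held 16495084 to 20395600 counts. Levels are in CPM, counts scaled to an equal library total, with the library totals adjusted by TMM, and 3 counts equal 0.103 to 0.207 CPM. Fold changes are log2 ± SE, and p-values come from the quasi-likelihood test of edgeR, two-sided and adjusted by the Benjamini-Hochberg method over all 16623 genes, with a gene called as changed below 0.05. No identifier in the table carries the name LncSync, so the loss of its transcript was not checked here.

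All 12 cardiomyocyte markers, Myh6 and Tnnt2 among them, were detected, with summed levels of 68760 and 88160 CPM in KO adults, 90110 and 89520 CPM in WT adults, 38920 and 15620 CPM in KO e13.5 cells, and 32870 and 26280 CPM in WT e13.5 cells. Markers of other cell types were present too. The 8 erythroid markers summed to at most 179.6 CPM in adults of either genotype, to 153800 and 22170 CPM in libraries 1 and 2 of KO e13.5, and to 42040 and 19490 CPM in those of WT e13.5. The 8 fibroblast markers summed to 1031 and 600.3 CPM in KO adults and 655.6 and 403.3 CPM in WT adults. At e13.5 they summed to 417.6 and 3646 CPM in libraries 1 and 2 of KO and to 886.1 and 3699 CPM in those of WT. At e13.5, library 2 of each genotype was thus far above library 1 in the sum of the fibroblast markers. Not every marker followed the sum. In libraries 1 and 2 of WT e13.5, Dcn had 170.4 and 118.9 CPM and Tcf21 had 12.4 and 11.7 CPM. In such bulk samples, fewer cells of a type and less RNA per cell cannot be told apart.

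Wdfy1 was higher in every KO library than in every WT library of the same age (ENSMUSG00000073643, GRCm38 chromosome 1, 79702262 to 79776143, minus strand, protein-coding). KO adults had 24.1 and 27.6 CPM, from 366 and 417 counts, against 6.81 and 10.1 CPM in WT adults, from 117 and 147 counts. KO e13.5 cells had 37.9 and 36.8 CPM, from 607 and 930 counts, against 4.42 and 5.54 CPM in WT e13.5 cells, from 96 and 161 counts. The groups did not overlap at either age. The lowest KO library, library 1 of the adults, still stood above the highest WT library of the series, library 2 of the adults.

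The mean level of Wdfy1 was 25.9 ± 2.49 CPM in KO adults and 8.47 ± 2.34 CPM in WT adults (SD, n = 2 each), a log2 fold change of 1.61 ± 0.43, or 3.06-fold. At e13.5 it was 37.4 ± 0.808 CPM in KO and 4.98 ± 0.792 CPM in WT (SD, n = 2 each), a log2 fold change of 2.90 ± 0.45, or 7.48-fold. Taken library by library, the ratio of KO to WT was 3.54 in libraries 1 and 2.73 in libraries 2 of the adults, and 8.58 and 6.64 in those of e13.5. These values chose the genes and carry no test. Among the 16623 genes, 513 in adults and 78 at e13.5 had a log2 rise in KO at least as large, and 227 genes, 1.37%, were higher without overlap in KO at both ages. Over 14 other ways of processing, the log2 fold change of Wdfy1 ranged from 1.36 to 1.91 in adults and from 2.88 to 3.11 at e13.5.

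**Figure D1:**
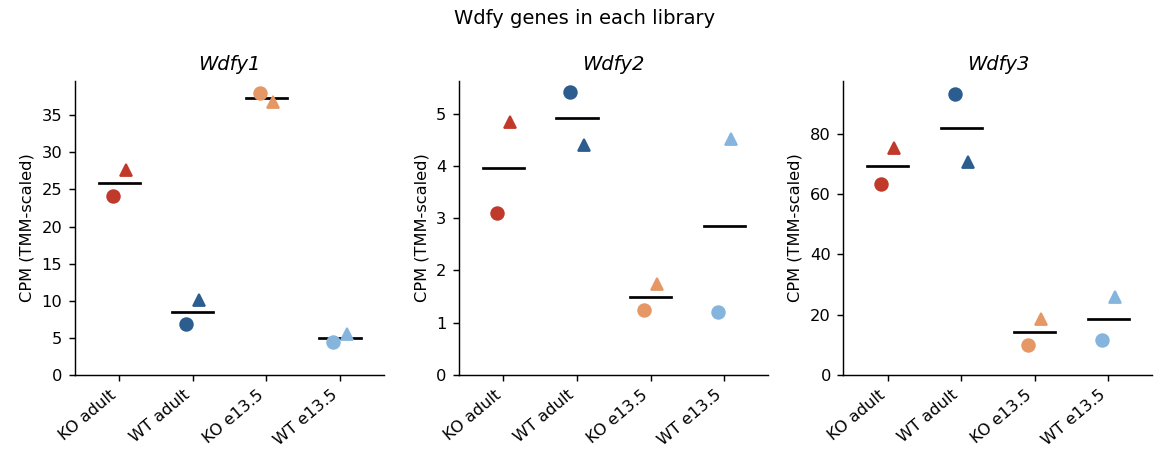
Level of Wdfy1, Wdfy2 and Wdfy3 in each library, in CPM after TMM scaling, for KO adult, WT adult, KO e13.5 and WT e13.5; circles are libraries 1, triangles are libraries 2 and lines are group means. Both KO groups of Wdfy1 lie above both WT groups, Wdfy2 overlaps between genotypes at each age, and Wdfy3 is at 63.3 CPM or more in adults and at 25.8 CPM or less at e13.5.

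Between ages, the libraries of Wdfy1 lay in opposite directions in KO and in WT. They did not overlap between ages in either genotype, as 72.7% of all genes did not in KO and 75.9% in WT. In KO, adults lay below e13.5 cells, with a log2 fold change of -0.53 ± 0.42 that missed the threshold (adjusted p = 0.325). In WT, adults lay above e13.5 cells, with 0.76 ± 0.43, which also missed it (adjusted p = 0.18). The KO effect was smaller in adults than at e13.5 by 1.29 ± 0.60 on the log2 scale, a difference that rests on the values that chose the gene and was not tested.

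The coding sequences of Wdfy1 and Wdfy2, 1230 and 1200 bases long, share no exact stretch longer than 20 bases, shown here as the longest match between the coding parts of these relatives. The untranslated parts of the transcripts were compared only as described after it. It starts at coding base 667 in each gene, in the GENCODE vM21 transcripts of the GRCm38 build (chromosome 1 for Wdfy1 and chromosome 14 for Wdfy2).
Wdfy1 and Wdfy2: gtcatcatgtgggacatcgg
The longest stretch shared with Wdfy3 was 13 bases for Wdfy1 and 12 bases for Wdfy2. For each of the 7 genes, the transcript with the longest coding sequence was searched against all transcripts of other genes. None matched it at 95% identity or more over at least 50% of its length. The longest partial match was 166 bases at 95.2% identity for Wdfy1 (to Syt11) and 346 bases at 100% for Wdfy2 (to Gm26536). Other transcripts of the 7 genes were not searched.

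Wdfy1 overlaps its neighbour Mrpl44, a gene of the mitochondrial ribosome on the opposite strand, by 126 bases, and the sources used here do not say whether counting used the strand. Mrpl44 had 54.9 and 48.8 CPM in KO adults against 50.2 and 57.2 CPM in WT adults, and 43.4 and 22.2 CPM in KO e13.5 cells against 33.4 and 20.8 CPM in WT e13.5 cells. Its groups overlapped at both ages, with a log2 fold change of KO over WT of -0.05 ± 0.46 in adults and 0.28 ± 0.46 at e13.5 (adjusted p = 1 each). Of the 6 nearest tested genes, Ap1s3, Kcne4 and Acsl3 on one side and Mrpl44, Serpine2 and Fam124b on the other, none was called in KO against WT at either age. Such calls were rare, at 0.0481% of all genes in adults and 0.0722% at e13.5. Ap1s3 was near the limit of counting, with 0.0659 and 0 CPM in KO adults against 0.349 and 0.689 CPM in WT adults. In adults, 14.5% of all genes were lower in KO without overlap.

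Genes known to differ in expression between C57BL/6 substrains were set beside Wdfy1, which is itself known as such a gene. Entpd4, which encodes a nucleotide-cleaving enzyme of the Golgi, had 63.4 and 57.7 CPM in KO adults against 106 and 127 CPM in WT adults. At e13.5 it had 18.6 and 32.7 CPM in KO against 79.8 and 58.4 CPM in WT. Entpd4 was lower in KO without overlap at both ages, as were 1.93% of all genes, with log2 fold changes of -0.95 ± 0.43 in adults and -1.43 ± 0.44 at e13.5 that missed the threshold (adjusted p = 1 each). Reads of Entpd4 cannot be told from those of Entpd4b, whose transcript is identical over 3589 bases. Nnt, the mitochondrial transhydrogenase that is truncated in the 6J substrain, had 767.6 and 940.6 CPM in KO adults against 482 and 498.1 CPM in WT adults, but 41.7 and 118 CPM in KO e13.5 cells against 130 and 103 CPM in WT e13.5 cells. None of the 3 genes of this list was called in KO against WT at either age, where 0.0481% of all genes were called in adults and 0.0722% at e13.5. The labels name no substrain, and the part of such a difference in the level of Wdfy1 was not tested.

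The 10 macrophage and leukocyte markers summed to 506.2 and 282.8 CPM in KO adults against 315.6 and 191.9 CPM in WT adults, and to 105.9 and 102.4 CPM in KO e13.5 cells against 66.1 and 74.5 CPM in WT e13.5 cells. The sums overlapped in adults and not at e13.5, where 15.4% of all genes did not overlap. Log2 fold changes of KO over WT were above 0 for 10 of 10 of these markers in adults and 8 of 10 at e13.5. None of them was called, beside 0.0481% of all genes in adults and 0.0722% at e13.5, and none was at 0 in all libraries. Other marker lists leaned upward in adults too, with 8 of 8 endothelial, 7 of 8 fibroblast and 7 of 8 erythroid markers above 0. So were 6 of 8 smooth muscle and pericyte and 6 of 12 cardiomyocyte markers. At e13.5, 7 of 8 erythroid and 5 of 12 cardiomyocyte markers were above 0. For the endothelial, fibroblast, and smooth muscle and pericyte lists it was 4 of 8 each. The part of any of these cell types in the level of Wdfy1 was not tested.

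The genes whose course over the 8 libraries was most like that of Wdfy1 were sought among 10756 genes with a mean of at least 5 CPM, by the root mean square difference of log2 CPM centred on each gene's mean. They were Cd14 (0.785), Hddc3 (0.811), Myo19 (0.817), Bcar3 (0.819) and Ctss (0.826), in log2 units, against a range of 3.07 for Wdfy1 itself. Hddc3 had 22.3 and 13.3 CPM in KO adults against 3.84 and 2.27 CPM in WT adults, and 31.9 and 14.7 CPM in KO e13.5 cells against 7.42 and 4.65 CPM in WT e13.5 cells. Cd14 had 8.96 and 9.28 CPM in KO adults against 7.74 and 5.51 CPM in WT adults, and 29.2 and 7.76 CPM in KO e13.5 cells against 4.47 and 3.99 CPM in WT e13.5 cells. Among the other 6 genes, Irf3 was nearest to Wdfy1 (1.18) and Tlr3 farthest (2.34). The 5 genes depend on the measure, since Pearson's r picked 5 others, with 0 shared.

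Wdfy2 (ENSMUSG00000014547, chromosome 14, 62837678 to 62961509, plus strand), the closest relative of Wdfy1 here, was low throughout and did not follow it. It had 3.10 and 4.84 CPM in KO adults against 5.41 and 4.41 CPM in WT adults, and 1.25 and 1.74 CPM in KO e13.5 cells against 1.20 and 4.51 CPM in WT e13.5 cells. The genotypes overlapped at both ages, and the highest e13.5 value was that of WT library 2. The log2 fold change of KO over WT was -0.31 ± 0.68 in adults, with a 95% interval of -1.83 to 1.22, and -0.93 ± 0.69 at e13.5, with an interval of -2.48 to 0.62 (adjusted p = 1 each). With age it was 1.40 ± 0.70 in KO (adjusted p = 0.132), where the libraries did not overlap, and 0.78 ± 0.68 in WT (adjusted p = 0.387), where they did.

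Wdfy3 (ENSMUSG00000043940, chromosome 5, 101832956 to 102069921, minus strand), the autophagy scaffold, rose with age in both genotypes and did not pass the test between them. It had 63.3 and 75.2 CPM in KO adults against 93.3 and 70.5 CPM in WT adults, and 9.88 and 18.4 CPM in KO e13.5 cells against 11.5 and 25.8 CPM in WT e13.5 cells. Genotypes overlapped at both ages, while adults lay above e13.5 cells in all libraries. Adults over e13.5 cells, the log2 fold change was 2.29 ± 0.53 in KO (adjusted p = 0.00821) and 2.13 ± 0.53 in WT (adjusted p = 0.0115). The call in WT was lost without WT adult library 1 (1.93, adjusted p = 0.0794). KO over WT, it was -0.24 ± 0.51 in adults, with a 95% interval of -1.37 to 0.89, and -0.40 ± 0.51 at e13.5, with an interval of -1.53 to 0.74 (adjusted p = 1 each).

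Tlr3 (ENSMUSG00000031639, chromosome 8, 45395665 to 45411080, minus strand), the double-stranded RNA receptor, was much higher in adult than in embryonic cells. It had 8.57 and 8.55 CPM in KO adults against 10.4 and 11.3 CPM in WT adults, and 0.438 and 0.752 CPM in KO e13.5 cells against 0.277 and 3.03 CPM in WT e13.5 cells. KO adults lay just below WT adults without overlap, and at e13.5 WT library 2 stood apart, 11-fold above WT library 1. Adults over e13.5 cells, the log2 fold change was 3.81 ± 0.94 in KO (adjusted p = 0.0106) and 2.69 ± 0.87 in WT (adjusted p = 0.0343). The call in WT was lost without KO adult library 1 (adjusted p = 0.0594), KO adult library 2 (0.058), WT adult library 1 (0.0913) or WT adult library 2 (0.1), and in a fit of the WT libraries alone (0.0589). It was 5.28 without WT e13.5 library 2 and 1.98 without WT e13.5 library 1, and was called in each case (adjusted p = 0.000803 and 0.0394). KO over WT, the log2 fold change was -0.34 ± 0.81 in adults, with a 95% interval of -2.16 to 1.47, and -1.46 ± 0.89 at e13.5, with an interval of -3.44 to 0.52 (adjusted p = 1 each). The e13.5 value turned to 1.13 without WT e13.5 library 2.

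Tlr4 (ENSMUSG00000039005, chromosome 4, 66827584 to 66930284, plus strand), the lipopolysaccharide receptor that also signals through TRIF, was the most variable of the 7 genes within groups of adults. It had 9.09 and 25.3 CPM in KO adults against 12.3 and 5.85 CPM in WT adults, and 0.938 and 2.85 CPM in KO e13.5 cells against 0.691 and 7.89 CPM in WT e13.5 cells. The genotypes overlapped at both ages, KO adult library 2 was the highest and, as for Tlr3, WT e13.5 library 2 stood 11.4-fold above library 1. Tlr4 rose with age in KO, by a log2 fold change of 3.16 ± 1.06 (adjusted p = 0.0382), a call lost without KO e13.5 library 1 (2.61, adjusted p = 0.133), KO adult library 1 (3.73, adjusted p = 0.0587) or KO adult library 2 (2.26, adjusted p = 0.205). In WT it was 1.08 ± 0.99 (adjusted p = 0.406), but 3.72 and called without WT e13.5 library 2 (adjusted p = 0.0133). The age effect was larger in KO than in WT by 2.08 ± 1.40, which missed the threshold (adjusted p = 1). KO over WT, the log2 fold change was 0.91 ± 0.98 in adults, with a 95% interval of -1.28 to 3.10, and -1.17 ± 1.005 at e13.5, with an interval of -3.41 to 1.08 (adjusted p = 1 each). Without WT e13.5 library 2 the e13.5 value turned to 1.47.

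The spread between the e13.5 libraries of 1 genotype went with the library number in several of these genes. Library 2 over library 1, the ratio was 1.72 in KO and 11 in WT for Tlr3, 3.04 and 11.4 for Tlr4, 1.87 and 2.25 for Wdfy3, and 1.39 and 3.76 for Wdfy2. It was 0.658 in KO and 0.681 in WT for Irf3, and 0.97 in KO and 1.25 in WT for Wdfy1. The summed fibroblast markers were higher in libraries 2 as well, and the summed erythroid markers lower, in both genotypes, as given above. The 8 endothelial markers summed to 760.4 and 690.5 CPM in libraries 1 and 2 of KO and 615.2 and 789.1 CPM in WT. Of these, Cdh5, Kdr, Tek and Pecam1 were higher in libraries 2 of both genotypes, Egfl7, Emcn and Fabp4 were lower, and Tie1 differed between genotypes. The TMM factors were 0.971 and 1.4 in libraries 1 and 2 of KO, and 1.06 and 1.44 in WT. The part of any of these in the levels of Tlr3, Tlr4, Wdfy2 and Wdfy3 was not tested.

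Ticam1 (ENSMUSG00000047123, chromosome 17, 56269319 to 56276786, minus strand), which encodes the adaptor TRIF, was the steadiest of the 7 genes. It had 11.5 and 9.68 CPM in KO adults against 9.26 and 9.64 CPM in WT adults, and 9.0 and 13.1 CPM in KO e13.5 cells against 12.1 and 13.4 CPM in WT e13.5 cells. The KO adults lay just above the WT adults without overlap, and the e13.5 genotypes overlapped. KO over WT, the log2 fold change was 0.16 ± 0.44 in adults, with a 95% interval of -0.82 to 1.14, and -0.20 ± 0.44 at e13.5, with an interval of -1.18 to 0.77 (adjusted p = 1 each). With age it was -0.07 ± 0.44 in KO (adjusted p = 0.911) and -0.43 ± 0.44 in WT (adjusted p = 0.452).

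Irf3 (ENSMUSG00000003184, chromosome 7, 44997648 to 45002848, plus strand), the transcription factor at the end of the TRIF branch, was the most abundant of the 7 genes per length. It had 26.4 and 21.1 CPM in KO adults against 19.0 and 27.6 CPM in WT adults, and 47.1 and 31.0 CPM in KO e13.5 cells against 39.2 and 26.7 CPM in WT e13.5 cells. The genotypes overlapped at both ages, and library 1 was above library 2 in every group but WT adults. KO over WT, the log2 fold change was 0.02 ± 0.44 in adults, with a 95% interval of -0.97 to 1.02, and 0.24 ± 0.44 at e13.5, with an interval of -0.74 to 1.23 (adjusted p = 1 each). With age it was -0.72 ± 0.44 in KO (adjusted p = 0.212) and -0.50 ± 0.44 in WT (adjusted p = 0.394). Irf3 overlaps Bcl2l12, on the opposite strand, by 1065 bases, so reads of that stretch may belong to either gene.

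**Figure D2:**
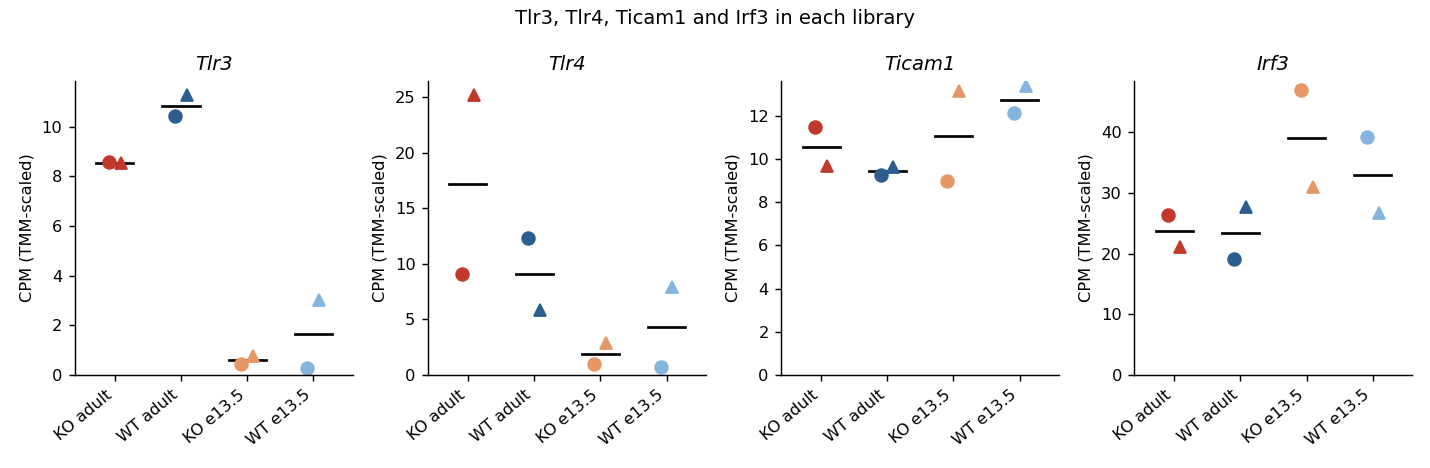
Level of Tlr3, Tlr4, Ticam1 and Irf3 in each library, in CPM after TMM scaling, drawn as in the plot of the Wdfy genes, with circles for libraries 1, triangles for libraries 2 and lines for group means. Tlr3 is at 8.55 CPM or more in adults and at 3.03 CPM or less at e13.5, KO adult library 2 stands out in Tlr4, and Ticam1 lies between 9.0 and 13.4 CPM in all 8 libraries.

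Between genotypes, then, none of the 6 genes tested was called in adults, where 0.0481% of all genes were called (0.0421% higher and 0.00602% lower), or at e13.5, where 0.0722% were (0.0602% higher and 0.012% lower). The split of those calls over all genes depended on the tool and the filter. DESeq2 called 23 higher and 31 lower in adults and 16 higher and 14 lower at e13.5, and edgeR without a filter called 29 higher and 35 lower in adults and 32 higher and 55 lower at e13.5. None had an unadjusted p below 0.05 in edgeR at either age, and DESeq2 called none. Ticam1 higher and Tlr3 lower in KO adults were the pairs of groups that did not overlap, beside 27.9% of all genes in adults (14.5% of all genes were lower in KO). At e13.5 the groups of all 6 overlapped, beside 15.4% of all genes that did not (6.77% higher and 8.65% lower). In adults the log2 fold changes of the 6 ran from -0.34 (Tlr3) to 0.91 (Tlr4), beside a median of 0.01 over all genes. At e13.5 they ran from -1.46 (Tlr3) to 0.24 (Irf3), beside a median of -0.07. The difference of the KO effect between ages was called for none of the 6, as for 0% of all genes (265 with an unadjusted p below 0.05, and 7 called by DESeq2).

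With age, 3 of the 7 genes rose in KO (Wdfy3, Tlr3 and Tlr4) and 2 rose in WT (Wdfy3 and Tlr3), and none was called lower. Over all genes, 41.4% were called with age in KO (20.5% higher and 20.9% lower) and 38.9% in WT (17.8% higher and 21.1% lower), so calls with age were common. The groups did not overlap for 6 of 7 genes in KO and 4 of 7 in WT, beside 72.7% of all genes in KO (34.8% higher and 37.9% lower) and 75.9% in WT (34% higher and 41.8% lower). The median log2 fold change of the 7 genes was 1.40 in KO and 0.78 in WT, against -0.15 and -0.26 over all genes. Each library enters a comparison between genotypes and a comparison between ages, so these sets of values are not independent.

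**Figure D3:**
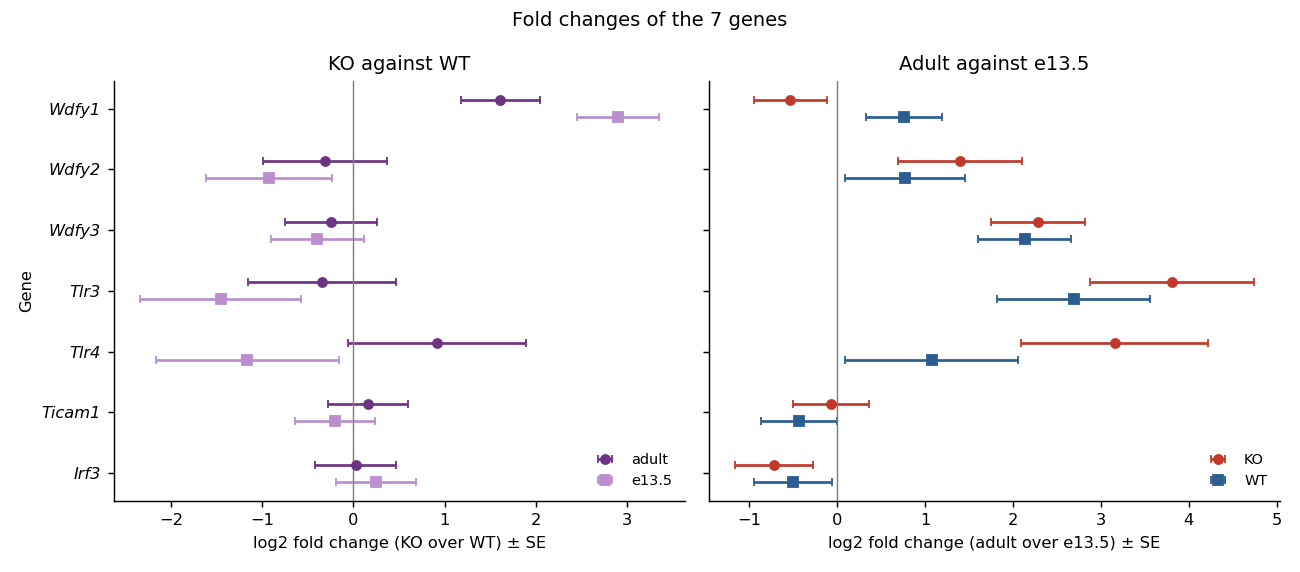
Log2 fold change ± SE of the 7 genes, KO over WT in adults and at e13.5 (left) and adult over e13.5 in KO and in WT (right). On the left, Wdfy1 lies farthest to the right, at 1.61 in adults and 2.90 at e13.5, and on the right, Wdfy3 and Tlr3 lie above 2 in both genotypes.

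Per kilobase of exon, which allows levels to be compared between genes, Irf3 led in all 4 groups and Wdfy1 changed its place with the genotype. In KO adults the mean level was 6.89 CPM per kilobase for Irf3, followed by Wdfy3 (4.51), Wdfy1 (3.99), Ticam1 (3.53), Tlr4 (3.09), Tlr3 (1.64) and Wdfy2 (0.432), and from Wdfy3 to Tlr3 each neighbour overlapped the next. In WT adults the order was Irf3 (6.78), Wdfy3 (5.34), Ticam1 (3.16), Tlr3 (2.09), Tlr4 (1.64), Wdfy1 (1.31) and Wdfy2 (0.535). There Irf3 and Wdfy3 overlapped, as did Tlr3 with Tlr4 and Tlr4 with Wdfy1.

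In KO e13.5 cells Wdfy1 was second, at 5.76 CPM per kilobase, below Irf3 (11.3) and above Ticam1 (3.70) and Wdfy3 (0.923) with no overlap between neighbours. Tlr4 (0.341), Wdfy2 (0.163) and Tlr3 (0.114) came last and overlapped in turn. In WT e13.5 cells Wdfy1 was at 0.768 CPM per kilobase, after Irf3 (9.57), Ticam1 (4.26), Wdfy3 (1.21) and Tlr4 (0.772), and before Tlr3 (0.318) and Wdfy2 (0.311). Wdfy3, Tlr4 and Wdfy1 overlapped in turn there, as did Tlr3 and Wdfy2. The order depended in part on the length used. Per length of the longest transcript, Wdfy1 (5.69) passed Wdfy3 (4.85) and Tlr4 (4.21) passed Ticam1 (3.53) in KO adults, and in WT e13.5 cells Wdfy1 (1.095) passed Tlr4 (1.05) and Wdfy2 (0.43) passed Tlr3 (0.375). At e13.5, the mean level of Wdfy1 per length was by both lengths above that of Ticam1 in KO and below it in WT.

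**Figure D4:**
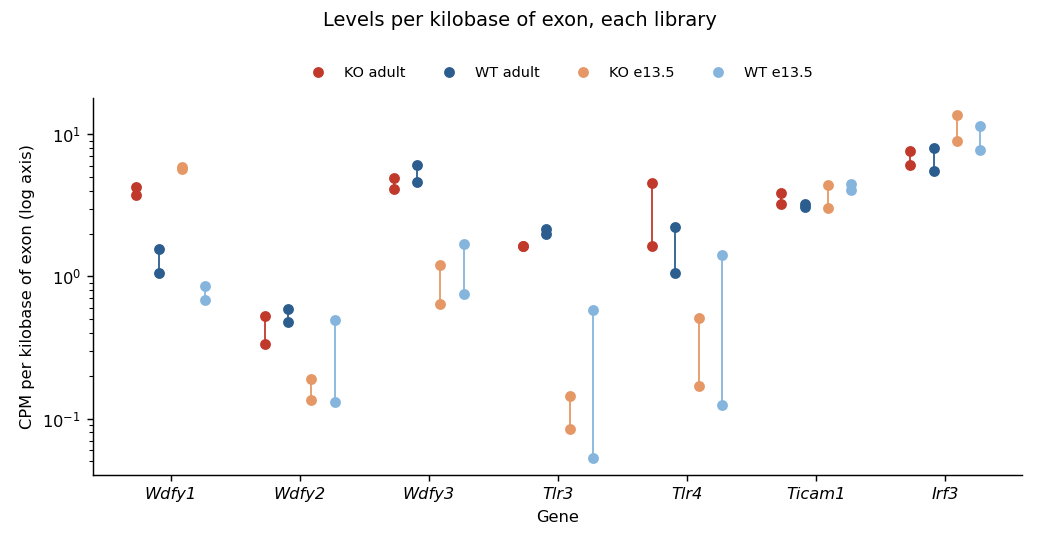
Level of the 7 genes per kilobase of exon in each library, on a log axis, with a line joining the 2 libraries of a group, for KO adult, WT adult, KO e13.5 and WT e13.5. Irf3 has the highest mean in each group, the 4 groups of Ticam1 lie close together, and Wdfy1 separates KO from WT at both ages.

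The RefSeq table of promoters (GRCm38.p6, 250 bases before to 50 bases after the start of a gene) held 4 of the 7 genes, Irf3, Ticam1, Tlr3 and Wdfy2. They were searched on both strands for the core of the interferon-stimulated response element, the GC box (GGGCGG) and the E-box (CACGTG), which occur in 3.44%, 35.7% and 7.15% of 32851 promoters. The promoters of Tlr3, which rose with age, and Ticam1, which did not pass the test, are shown as an example of each course. They lie at chr8:45410331-45410630 and chr17:56276718-56277017, both on the minus strand and written 5' to 3', and capitals mark the matches.
Tlr3: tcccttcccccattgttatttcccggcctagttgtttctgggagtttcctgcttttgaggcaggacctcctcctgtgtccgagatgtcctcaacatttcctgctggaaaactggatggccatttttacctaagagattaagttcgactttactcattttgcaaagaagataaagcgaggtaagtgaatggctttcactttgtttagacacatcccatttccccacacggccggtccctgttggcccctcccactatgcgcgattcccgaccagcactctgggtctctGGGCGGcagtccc
Ticam1: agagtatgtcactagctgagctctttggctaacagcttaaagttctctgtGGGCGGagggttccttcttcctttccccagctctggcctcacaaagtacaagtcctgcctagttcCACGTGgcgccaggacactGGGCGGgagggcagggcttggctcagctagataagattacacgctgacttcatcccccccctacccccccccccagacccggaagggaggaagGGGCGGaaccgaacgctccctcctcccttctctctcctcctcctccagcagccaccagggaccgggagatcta
The window of Tlr3 held 1 GC box, 37 bases after the RefSeq start, and that of Ticam1 held 3 GC boxes and 1 E-box. The Tlr3 window lies inside the gene as GENCODE vM21 has it, with a 5' end at 45411080. The stretch around that 5' end was not searched. Wdfy2 had 6 GC boxes and Irf3 had 1. The letters of the response element core were in none of these 4 windows.

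The other genes of the pathway and the gene families were described by 10 lists with 120 tested genes in all. None of the 120 was called in KO against WT at either age (6 at e13.5 and 3 in adults had an unadjusted p below 0.05 in edgeR, and DESeq2 called none). Of all 16623 genes, edgeR called 12 at e13.5 (0.0722%) and 8 in adults (0.0481%), so a list of this size could hold none. An unadjusted p below 0.05 in edgeR was found for 398 of the 16623 at e13.5 and 377 in adults. With age, 39 rose and 7 fell in KO, and 39 rose and 7 fell in WT. Over all genes, 20.5% rose and 20.9% fell in KO, and 17.8% rose and 21.1% fell in WT. With a library left out, 29 (without KO adult library 1) to 51 (without WT e13.5 library 1) rose in KO, and 3 to 10 fell. In WT, 18 (without WT adult library 1) to 48 (without WT e13.5 library 2) rose, and 1 to 9 fell. DESeq2 called 44 higher and 11 lower in KO, and 46 higher and 8 lower in WT.

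Among the proteins that fold, move and assist Toll-like receptors, 1 of 6 rose and 1 fell with age in KO, and 2 fell in WT. Beside them, 20.5% of all genes rose and 20.9% fell in KO, and 17.8% rose and 21.1% fell in WT. Cnpy3, a chaperone of Toll-like receptors, fell in both, by 1.69 ± 0.47 in KO (adjusted p = 0.0181) and 1.88 ± 0.47 in WT (adjusted p = 0.0127). Unc93b1, which carries TLR3 and other nucleic acid receptors to endosomes, rose in KO by 1.38 ± 0.46 (adjusted p = 0.0355). It had 30.2 and 19.6 CPM in KO adults, against 10.9 and 8.19 CPM in KO e13.5 cells. In WT, Unc93b1 had 18.3 and 13.7 CPM in adults and 9.72 and 8.78 CPM at e13.5. Lbp, the lipopolysaccharide binding protein, fell in WT by 2.10 ± 0.61 (adjusted p = 0.0223). In KO, Lbp had 7.97 and 3.18 CPM in adults and 16.4 and 9.30 CPM at e13.5. The difference of the KO effect between ages was called for none of the 6 genes. The median log2 fold change of the list was -1.02 in KO and -0.79 in WT, against -0.15 and -0.26 over all genes.

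None of the 4 other adaptors was called in any comparison, among them Myd88, which serves most Toll-like receptors, with 0 of 4 at an unadjusted p below 0.05 in KO and 1 of 4 in WT with age, and none called by DESeq2. Of the 17 kinases, ligases and scaffolds of the TRIF and MYD88 branches, 6 rose and 1 fell in KO (3 to 8 and 0 to 1 with a library left out), and 5 rose and 1 fell in WT (2 to 9 and 0 to 1). Irak1, a kinase of the MYD88 branch, had 80.8 and 72.3 CPM in KO adults and 8.69 and 6.37 CPM in KO e13.5 cells (log2 3.35 ± 0.42, adjusted p = 0.000474). Its log2 rise in WT was 3.59 ± 0.43 (adjusted p = 0.00042). Map3k7, the kinase TAK1, rose by 3.38 ± 0.50 in KO (adjusted p = 0.000999) and 3.25 ± 0.50 in WT (adjusted p = 0.00122). Traf3, the ligase that links TRIF to TBK1, rose by 3.07 ± 0.62 in KO (adjusted p = 0.00435). In WT, Traf3 had 27.4 and 18.5 CPM in adults and 2.81 and 8.99 CPM at e13.5. Tab2, a partner of TAK1, rose by 1.55 ± 0.39 in WT (adjusted p = 0.0127). In KO, Tab2 had 62.3 and 76.0 CPM in adults and 20.3 and 22.2 CPM at e13.5. The difference of the KO effect between ages was called for none of the 17 genes. Their median log2 fold change with age was 1.21 in KO and 0.53 in WT, and of all genes 20.5% rose in KO and 17.8% in WT.

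Of the 7 other transcription factors of the pathway, 2 rose and 2 fell with age in KO, and 2 rose in WT. Beside them, 20.5% of all genes rose and 20.9% fell in KO, and 17.8% rose and 21.1% fell in WT. Irf7, an interferon-induced relative of Irf3, had 22.1 and 9.41 CPM in KO adults and 2.50 and 1.70 CPM in KO e13.5 cells, and 44.7 and 34.4 CPM in WT adults and 0.968 and 1.55 CPM in WT e13.5 cells. Its log2 rise was 2.91 ± 0.58 in KO (adjusted p = 0.00386) and 4.96 ± 0.63 in WT (adjusted p = 0.00053). Nfkb1, an NF-kappaB subunit, rose by 2.21 ± 0.46 in KO (adjusted p = 0.00482) and 2.05 ± 0.45 in WT (adjusted p = 0.00709). Jun, an AP-1 subunit, fell by 2.04 ± 0.46 in KO (adjusted p = 0.00731). In WT, Jun had 270.3 and 218.9 CPM in adults and 584.8 and 474.8 CPM at e13.5. The difference of the KO effect between ages was called for none of the 7 genes. The median of the list was -0.12 in KO and -0.46 in WT.

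Tlr7, Tlr8 and Tlr9, receptors of single-stranded RNA and of CpG DNA in endosomes, were the genes called among the 9 other Toll-like receptors tested. They rose with age in both genotypes, as 20.5% of all genes did in KO and 17.8% in WT. Tlr7 had 2.97 and 2.85 CPM in KO adults and 3.96 and 3.38 CPM in WT adults, and at most 0.241 CPM in the e13.5 libraries (adjusted p = 0.0118 in KO and 0.0117 in WT). Tlr8 was listed at 0 in both KO e13.5 libraries and in WT e13.5 library 2. It had 1.91 and 2.32 CPM in KO adults and 2.04 and 1.10 CPM in WT adults (adjusted p = 0.00471 in KO and 0.0129 in WT). Of the 10 macrophage and leukocyte markers, which include Csf1r and Adgre1, 5 rose with age in each genotype and DESeq2 called 7 in each. With a library left out, 1 (without KO adult library 1) to 9 (without either WT e13.5 library) rose in KO, and 0 (without WT adult library 1) to 7 (without either KO e13.5 library) rose in WT. Their part in the rises of these receptors was not tested.

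Of the 8 cytosolic sensors of nucleic acids and their adaptors, 3 rose with age in KO and 2 in WT, while DESeq2 called 4 and 3 higher. Over all genes 20.5% rose in KO and 17.8% in WT. Mavs, the mitochondrial adaptor of the RIG-I-like receptors, rose by 2.20 ± 0.41 in KO (adjusted p = 0.00283) and 1.94 ± 0.40 in WT (adjusted p = 0.00523). Ifih1, which encodes the double-stranded RNA sensor MDA5, rose by 2.60 ± 0.57 in KO (adjusted p = 0.00651) and 2.66 ± 0.57 in WT (adjusted p = 0.00614). Its regulator Dhx58 rose by 3.19 ± 0.84 in KO (adjusted p = 0.0141). In WT, Dhx58 had 1.69 and 1.58 CPM in adults and 0.922 and 1.34 CPM at e13.5. The difference of the KO effect between ages was called for none of the 8 genes.

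Of the 28 interferon and Toll-like receptor response genes, 25 were tested. With age, 12 rose and 2 fell in KO, and 14 rose and 3 fell in WT, with median log2 fold changes of 1.52 and 1.78. Over all genes, 20.5% rose and 20.9% fell in KO, and 17.8% rose and 21.1% fell in WT. With a library left out, 6 (without KO adult library 1) to 15 of the response genes rose in KO, and 5 (without either WT adult library) to 15 rose in WT. Parp14, an ADP-ribosyltransferase induced by interferon, had 33.5 and 37.3 CPM in KO adults and 0.188 and 0.514 CPM in KO e13.5 cells (log2 6.57 ± 1.03, adjusted p = 0.00127). In WT its log2 rise was 5.66 ± 0.96 (adjusted p = 0.00206). Oas2, a double-stranded RNA-activated synthetase, had 8.63 and 13.2 CPM in KO adults and was listed at 0 in both KO e13.5 libraries, and had 10.9 and 15.0 CPM in WT adults against 0.0922 and 0.241 CPM in WT e13.5 cells. Cxcl10, a chemokine induced by interferon, went the other way and fell by 4.05 ± 0.75 in KO (adjusted p = 0.00285) and 4.42 ± 0.76 in WT (adjusted p = 0.00219). Nfkbia, the NF-kappaB inhibitor that the pathway induces, had 43.0 and 32.4 CPM in KO adults against 46.7 and 36.3 CPM in WT adults, with a log2 fold change of KO over WT of -0.14 ± 0.39 in adults and -0.04 ± 0.39 at e13.5. In KO against WT the median of the 25 genes was -0.14 in adults and -0.04 at e13.5, against 0.01 and -0.07 over all genes. Ifnb1, the interferon gene that IRF3 activates, was not tested and reached at most 0.0922 CPM in a library.

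Among the 8 BEACH domain genes other than Wdfy3, 4 rose in KO and 5 in WT with age, and none fell. The counts depended on the tool, as DESeq2 called 6 higher in KO and 7 in WT. Over all genes 20.5% rose in KO and 17.8% in WT. Nbeal2, known for its part in platelet granules, rose by 4.44 ± 0.59 in KO (adjusted p = 0.000612) and 3.73 ± 0.57 in WT (adjusted p = 0.00116). Lrba, which protects the receptor CTLA4 from degradation, rose by 5.04 ± 0.71 in KO (adjusted p = 0.00078) and 3.84 ± 0.66 in WT (adjusted p = 0.00215). Nsmaf rose by 3.12 ± 0.46 in KO (adjusted p = 0.000938) and 3.27 ± 0.46 in WT (adjusted p = 0.000815). Wdfy4, the relative of Wdfy3 and named after its values were seen, had 6.85 and 5.04 CPM in KO adults against 5.53 and 5.23 CPM in WT adults, and 0.188 and 0.317 CPM in KO e13.5 cells against 0.277 and 1.10 CPM in WT e13.5 cells. It too rose with age, by 4.49 ± 0.81 in KO (adjusted p = 0.00243) and 2.93 ± 0.72 in WT (adjusted p = 0.0116). All 8 genes were higher in adults than at e13.5 without overlap in both genotypes, as 34.8% of all genes were in KO and 34% in WT. In KO against WT, the log2 fold changes of all 8 were below 0 at e13.5 and those of 6 were in adults, with none called, and WT e13.5 library 2 was the highest e13.5 library for all 8.

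Of 22 genes of the FYVE domain and of phosphatidylinositol 3-phosphate, 6 rose and 1 fell with age in each genotype. DESeq2 called 6 of these genes higher and 2 lower in KO, and 6 higher and 1 lower in WT. Beside them, 20.5% of all genes rose and 20.9% fell in KO, and 17.8% rose and 21.1% fell in WT. Fyco1, which moves autophagosomes along microtubules, had 427.7 and 831.4 CPM in KO adults and 6.00 and 24.8 CPM in KO e13.5 cells (log2 5.35 ± 0.97, adjusted p = 0.00255), with a log2 rise of 4.71 ± 0.94 in WT (adjusted p = 0.00434). Mtmr3, a phosphatase of the lipid, rose by 3.85 ± 0.49 in KO (adjusted p = 0.000496) and 3.34 ± 0.48 in WT (adjusted p = 0.000894). Rufy1, an endosomal FYVE protein, rose by 2.55 ± 0.41 in KO (adjusted p = 0.00145) and 2.76 ± 0.41 in WT (adjusted p = 0.00111). Of the 14 selective autophagy genes, 2 rose and none fell in each genotype, beside the same shares of all genes. Optn, an autophagy receptor, rose by 2.70 ± 0.41 in KO (adjusted p = 0.00107) and 2.64 ± 0.41 in WT (adjusted p = 0.00125), and Map1lc3a, an LC3 protein of the autophagosome membrane, rose by 3.31 ± 0.57 in KO (adjusted p = 0.00197) and 2.05 ± 0.54 in WT (adjusted p = 0.0155). Sqstm1, the receptor p62 that binds ALFY, had 406.4 and 369.2 CPM in KO adults against 398.4 and 415.7 CPM in WT adults, and 796.2 and 334.6 CPM in KO e13.5 cells against 660 and 351 CPM in WT e13.5 cells, with overlap between the genotypes at both ages.

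**Figure D5:**
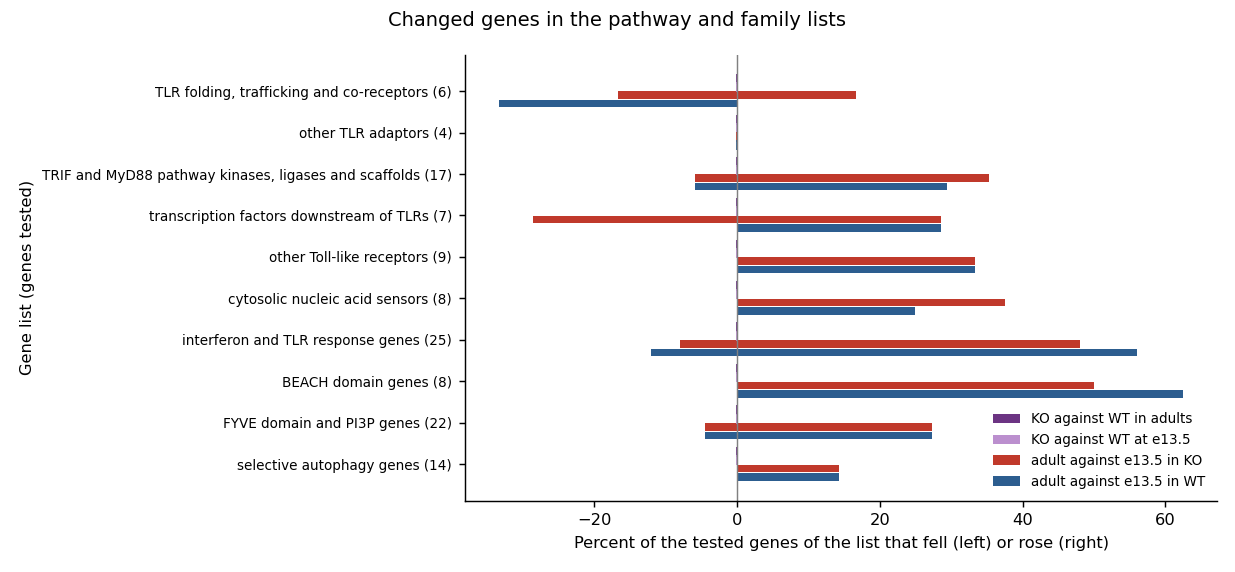
Percent of the tested genes of each of the 10 lists that rose (right of 0) or fell (left of 0) in 4 comparisons, KO against WT in adults and at e13.5, and adult against e13.5 in KO and in WT, with the number of tested genes in brackets. The bars of KO against WT are at 0 in all lists, where 0.0481% of all genes were called in adults and 0.0722% at e13.5. Those of age are longest for the BEACH domain genes and the response genes.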

How the data were processed

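The authors deposited 1 table of expected counts (estimated counts) per gene for the 8 libraries, made with RSEM on the mm10 genome per the submitters' processing notes. Not given in the sources used here are the aligner, the annotation, the RSEM version and the use of strand. The deposited counts are whole numbers with unequal totals, so they were taken as unscaled, despite a table name that mentions normalised input. GENCODE vM21 (GRCm38) gave names and positions for 51633 of 51826 identifiers. The remaining 193 held 0.0184% of counts or less in any library. All libraries and columns were used.

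The model came from edgeR 4.0.16, run under R 4.3.3 beside limma 3.58.1: filterByExpr, TMM factors from 0.77 to 1.44, 4 group means without a replicate term, and the quasi-likelihood test with 4 residual and 5.74 prior degrees of freedom. The biological coefficient of variation had a median of 0.428, and counting limits such as 3 counts cover counting error only. Values after ± are SE of fold changes or SD of levels. Intervals are 95% intervals of the log2 fold change from the same fit. The fit was tested on simulated data. Copies were searched with BLAST 2.17.0, and figures drawn in Python 3.11.15 with pandas 2.3.3 and matplotlib 3.10.9. Libraries of a group differed by more than sampling noise (chi-square per gene from 36.0 to 302.9), so none was counted as the same library deposited again. That does not show that they came from separate animals.

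The 7 genes, the 17 lists (10 of pathways and families, 1 of substrain genes and 6 of cell type markers) and the comparisons were chosen with earlier results of these data known. Named are the 7 genes, up to 3 called genes of each list by smallest p or else the 2 of highest level, the 5 genes most like Wdfy1 and its 3 nearest tested neighbours on each side. Alternatives were DESeq2 1.42.0 and its median-of-ratios scaling, no filter, at least 5 CPM in at least 2 libraries, only the libraries compared, leaving out each library, a block for the replicate number, and the longest transcript as length. The counts in lists under DESeq2, the block and left-out libraries were added after seeing the data. Some genes that the rule for named genes picks are not reported here.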

Additional observations from a re-analysis of the deposited data

Results flagged for a closer look

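The libraries of Wdfy1 lay in opposite directions with age in the 2 genotypes. Groups without overlap between ages were common, for 72.7% of all genes in KO and 75.9% in WT. Adults over e13.5 cells, the log2 fold change of Wdfy1 was -0.53 ± 0.42 in KO, where both adult libraries lay below both e13.5 libraries. It was 0.76 ± 0.43 in WT, where both lay above. Neither passed the threshold of edgeR (adjusted p = 0.325 and 0.18), with 95% intervals of -1.47 to 0.41 and -0.19 to 1.72. The difference between the genotypes rests on the values that chose the gene and was not tested. That difference, -1.29 ± 0.60 on the log2 scale (the age effect in KO minus that in WT), lay between -1.55 and -0.99 in the 13 alternatives.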

How the results depend on the processing

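Of 437 recomputed fold changes with a test, 407 kept their direction and their side of the threshold, 9 lost and 1 gained a call (values beside Wdfy3, Tlr3 and Tlr4 above), and 20 changed sign, none past the threshold in either form. The 41 recomputed values of Wdfy1 that chose the genes carry no test and are left out of these counts. Without WT e13.5 library 2, KO over WT at e13.5 turned to 0.35 for Wdfy2, 0.32 for Wdfy3, 1.13 for Tlr3 and 1.47 for Tlr4, and the difference between ages to -0.65, -0.57, -1.49 and -0.54 for the same genes in that order. Without KO e13.5 library 1, KO over WT at e13.5 was 0.035 for Ticam1 and -0.10 for Irf3, and the difference between ages was -0.22 for Wdfy3 and 0.12 for Irf3. Without WT adult library 2 that difference was -0.04 for Wdfy3 and 0.06 for Irf3. In adults KO over WT turned for Irf3 to -0.15 without KO adult library 1 and -0.22 without WT adult library 1, and for Tlr4 to -0.0064 without KO adult library 2. Ticam1 with age in KO turned to 0.23 without KO e13.5 library 2 and 0.06 without KO adult library 2. Wdfy2 was not among the genes kept at 5 CPM in 2 libraries. With a library left out, the ranges of these results were, for KO over WT at e13.5, -1.44 to 0.35 (Wdfy2), -0.90 to 0.32 (Wdfy3), -2.18 to 1.13 (Tlr3), -2.18 to 1.47 (Tlr4), -0.49 to 0.035 (Ticam1) and -0.10 to 0.70 (Irf3). In adults they were -0.0064 to 1.55 (Tlr4) and -0.22 to 0.31 (Irf3), and -0.30 to 0.23 for Ticam1 with age in KO. For the difference between ages they were -0.65 to 1.13 (Wdfy2), -0.57 to 0.66 (Wdfy3), -1.49 to 1.82 (Tlr3), -0.54 to 3.09 (Tlr4) and -0.70 to 0.12 (Irf3). The cause of these changes was not tested beyond the library left out.

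Genes called over the whole table moved more. For KO against WT at e13.5, 12 genes were called, 87 without a filter, 30 by DESeq2, 5 in a fit of the 4 libraries compared, and 6 to 35 with a library left out. For adults, 8 were called, 13 with median-of-ratios scaling, 64 without a filter, 54 by DESeq2, 2 in a fit of the 4 libraries, and 0 to 19 with a library left out. The difference between ages called 0 genes, 30 without a filter, 7 by DESeq2 and 0 to 5 with a library left out, and the fit of only the libraries compared was not run for it. With age, 6883 genes were called in KO (3710 to 7798 with a library left out) and 6463 in WT (2990 to 6965). Median-of-ratios scaling moved the median of all genes at e13.5 to 0.05, against -0.07. Per length of the longest transcript, the mean level was 4.21 in place of 2.96 CPM per kilobase for Wdfy1, and 14.7 in place of 8.64 for Irf3.

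The replicate numbers did not pair the libraries over all groups: deviations of same-numbered libraries correlated at 0.552 between the e13.5 groups and 0.307 between the adult groups, but at -0.022 and -0.032 between WT adults and the e13.5 groups. With the replicate number as a block, 12 genes were called at e13.5, 9 in adults, 8081 with age in KO, 7614 with age in WT and 0 for the difference between ages. The block changed no call of the 7 genes, and KO over WT in adults turned to -0.01 for Irf3. The block held a single term for both ages, so it could not take up a difference between same-numbered libraries particular to either age. Pairing within an age was not tested. Low counts limit Tlr3, Tlr4 and Wdfy2 at e13.5, where 2 libraries per group leave wide intervals.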

Other observations

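The marker lists changed with age as follows, beside 20.5% of all genes that rose and 20.9% that fell in KO. In WT, 17.8% of all genes rose and 21.1% fell. All 8 erythroid markers fell in both genotypes. Of 12 cardiomyocyte markers, 4 rose and 1 fell in KO, and 3 rose and 1 fell in WT. Of 8 endothelial markers, 3 rose in KO (1 to 3 with a library left out) and 1 in WT (0 to 4). Of 8 fibroblast markers, 1 rose and 2 fell in KO (0 to 1 and 1 to 5 with a library left out), and 3 fell in WT (0 to 6). Of 8 smooth muscle and pericyte markers, 3 rose and 3 fell in each genotype. In KO against WT none of these markers was called at either age by edgeR, beside 0.0481% of all genes in adults and 0.0722% at e13.5.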
